A study of Mus musculus with 12 samples.

Results

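Oxidative phosphorylation makes most of the ATP of a respiring cell. Complexes I and II take electrons from NADH and succinate, complex III passes them to cytochrome c, complex IV (cytochrome c oxidase) hands them to oxygen, and complex V, the ATP synthase, uses the resulting proton gradient. Most subunits are encoded in the nucleus and a core set in mitochondrial DNA. Skeletal and heart muscle use their own isoforms of some complex IV subunits, Cox6a2, Cox7a1 and Cox8b, in place of the widely expressed Cox6a1, Cox7a2 and Cox8a. Described here are the nuclear genes whose symbols match Nduf (complex I), Sdh (complex II), Uqcr (complex III), Cox (subunits of complex IV) or Atp5 (complex V), with assembly factors and symbols marked -ps left out. This gave 86 of 55385 genes in the table, with 40 in complex I, 4 in complex II, 8 in complex III, 16 in complex IV and 18 in complex V. The measurements are total RNA sequencing of C2C12 cells, an established mouse myoblast line, in 3 libraries of undifferentiated myoblasts and 3 libraries of cells differentiated into myotubes for 7 days. The labels give no genetic change in either group. They do not say that the replicates are separate cultures, and the p-values then measure only the spread between these libraries, which may be technical. The small RNA libraries of mouse embryonic stem cells in the same series were not used.

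Library totals ranged from 18335785 to 54083215 counts, and 15932 genes passed the filter on low counts. Levels are TMM-scaled CPM, the counts of a gene relative to the size of its library, given as mean ± SD over 3 libraries, and a gene is called where edgeR's quasi-likelihood test gave a Benjamini-Hochberg adjusted p under 0.05 over all tested genes. Markers matched the labels, with all 8 genes of differentiated muscle higher in myotubes and all 6 proliferation genes lower. Myotube replicate 1 stood apart from replicates 2 and 3, with 4109 against 10359 and 9264 summed CPM of the muscle markers and 852 against 228 and 192 of the proliferation markers. Of 5 osteoblast markers 2 passed the filter. The list summed to 54.5 CPM in myotube replicate 1 and 3.42 to 11.1 in the other libraries, and 54.1 of the 54.5 was Phex, while Dmp1 was at 0.232, its lowest level, and Bglap and Ibsp had 0 counts there. Of 7 markers of adipocytes, of which the brown kind also uses Cox7a1 and Cox8b, 0 passed the filter, and Ucp1, Adipoq and Cidec had 0 counts in every library. Their summed level was at most 0.56 CPM. Heart muscle shares the 3 isoforms. Of 7 cardiomyocyte markers, with a sum of 1.54 to 4.22 CPM in myoblasts and 7.65 to 11.9 in myotubes, 3 passed the filter, Myl7 had 0 counts and Nppa had 1 count in all. Of these 3, Nppb fell from a mean of 2.31 to 0.339 CPM, Tnni3 was not called, and Myh6, which skeletal myotubes can also express, rose from 0.0643 ± 0.0746 to 8.38 ± 1.38 CPM (SD, n = 3), so Myh6 carries the higher sum in myotubes. The bulk libraries cannot tell fewer cells of a kind from less RNA per cell.

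The respiratory chain genes split into a small group that changed and a large group that did not pass the test. Of the 86 genes, 78 were tested, and 7 rose and 7 fell in myotubes. Together 17.9% of the tested subunit genes were called, beside 40.1% of all tested genes, and the shares were 8.97% higher and 8.97% lower beside 20.5% and 19.6% over all tested genes. The groups did not overlap for 11 subunit genes that were higher in every myotube library and for 14 that were lower, beside 28.7% and 27.2% of all tested genes in the same directions. The median log2 fold change was -0.07 over the subunit genes and 0.06 over all tested genes. It was -0.20 without myoblast replicate 3, -0.13 without myoblast replicate 1, -0.14 without myotube replicate 2 and -0.025 without myoblast replicate 2. Apart from the 3 muscle isoforms, 74 of 75 tested genes had an absolute log2 fold change under 1 and 59 had one under 0.5. At an unadjusted p under 0.05 the number passing was 25 of 78. The shares of all tested genes at that threshold and under those fold changes are not given here, so these counts have no background beside them. Without myoblast replicate 1 there were 6 higher and 12 lower, without myoblast replicate 2 there were 3 and 2, and without myoblast replicate 3 there were 3 and 3. Without myotube replicate 2 there were 4 and 7, and without myotube replicate 3 there were 4 and 2. With libraries scaled by size alone the split moved to 4 higher and 14 lower, and DESeq2 called 9 and 11. The shares of all tested genes called under these other settings are not given here. The same holds for the counts per complex and per list under them below. Such counts cannot tell a change in the calls of these genes from one over all genes.

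**Figure D1:**
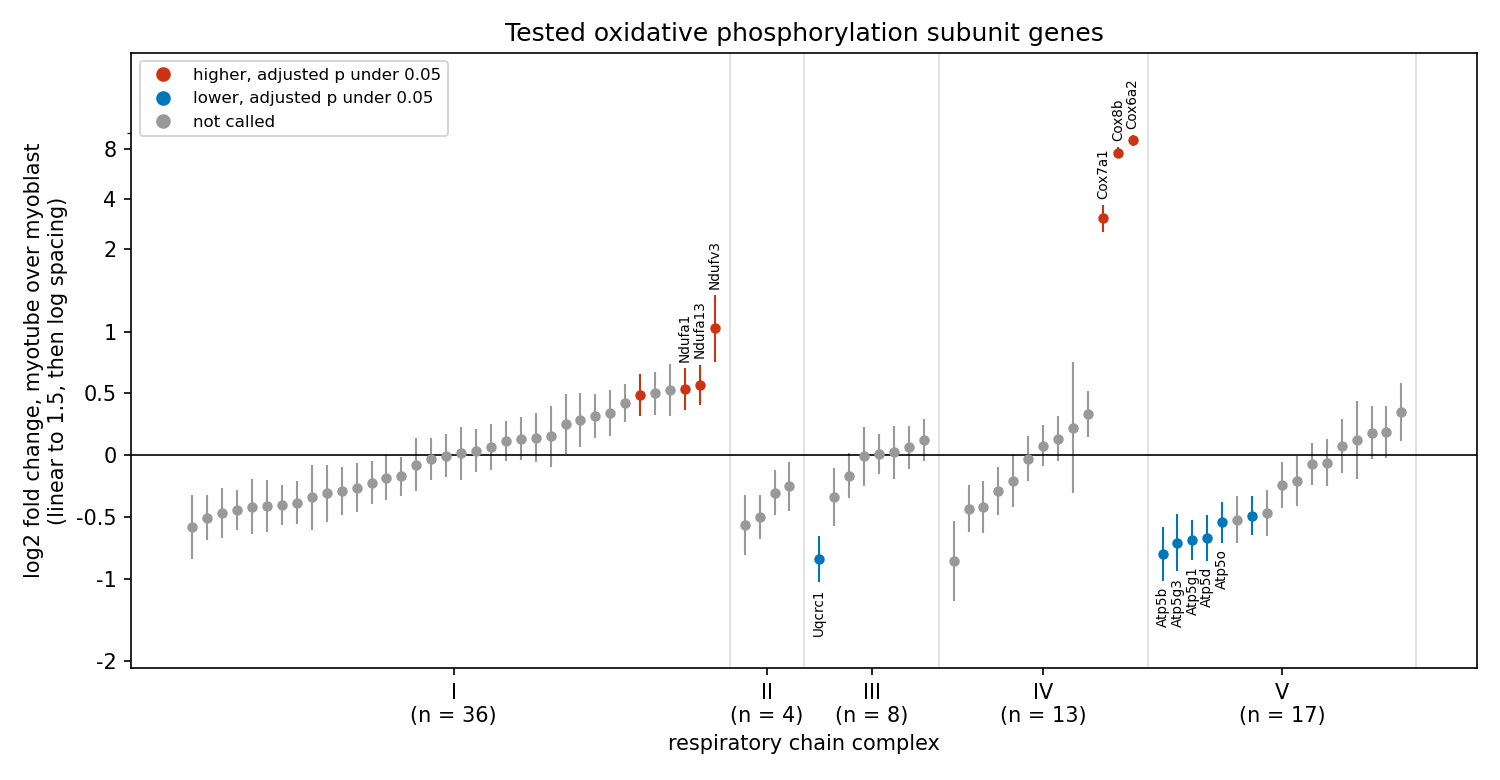
Log2 fold change of myotubes over myoblasts for the 78 tested subunit genes (points) with its standard error (bars), ordered by size within each complex, on an axis that is linear to 1.5 and log-spaced beyond, with names on called genes past 0.5 in absolute value. Most points lie between -1 and 1, while Cox7a1, Cox8b and Cox6a2 stand at 3.09, 7.57 and 8.99.

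The 3 muscle isoforms of complex IV rose most. Cox6a2 (ENSMUSG00000030785.8), the muscle form of subunit VIa, had 4, 2 and 0 counts in myoblast replicates 1 to 3 and 306, 887 and 655 in myotube replicates 1 to 3. In CPM it stood at 0.0668, 0.0487 and 0 in myoblasts and at 11.8, 28.9 and 38.0 in myotubes. The groups lay far apart, and myotube replicate 1 was the lowest of its group. The log2 fold change was 8.99 ± 0.68 (SE, edgeR adjusted p = 0.000136). Relative to the library sizes, the summed counts stood in a ratio of 510 (95% counting interval 234 to 1392), with 6 counts in the myoblast group.

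Cox8b (ENSMUSG00000025488.9), the muscle form of subunit VIII, had 194, 281 and 213 counts in the myotube libraries and the same 4, 2 and 0 as Cox6a2 before differentiation. Its levels were 0.0668, 0.0487 and 0 CPM and 7.5, 9.16 and 12.3 CPM. Its log2 fold change was 7.57 ± 0.57 (SE, edgeR adjusted p = 0.000126), and the same ratio was 190 (95% counting interval 86.8 to 519). A library with 0 counts still allows up to 3 counts, and the counting intervals leave out the spread between libraries. Cox6a2 and Cox8b passed the filter on low counts through their myotube libraries alone, so neither could be called lower. Cox7a1 (ENSMUSG00000074218.3), the muscle form of subunit VIIa, was already detected in each myoblast library, with 24, 17 and 3 counts against 47, 70 and 79 after differentiation. It moved from 0.401, 0.414 and 0.141 CPM to 1.82, 2.28 and 4.58 CPM, with no overlap. Its log2 fold change was 3.09 ± 0.57 (SE, edgeR adjusted p = 0.00404). Each of the 3 was called in every alternative that tested it. Their summed level was 21.1 CPM in myotube replicate 1 and 40.4 and 54.9 in replicates 2 and 3, and replicate 1 is also the library with less muscle marker and more proliferation marker RNA. The part of that in the isoform levels was not tested. Without myotube replicate 1 the log2 fold change of Cox7a1 was 3.31, and without myotube replicate 3 it was 2.61.

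The widely expressed partners stayed the larger share of each pair. Levels per length (CPM per kilobase of the deposited gene length) were compared for this. Cox6a1 stood at 199, 179 and 161 CPM per kilobase in myoblasts and 162, 119 and 119 in myotubes, and Cox6a2 reached 17.4, 42.5 and 55.8 there. The share of Cox6a2 in the pair was therefore 9.71%, 26.4% and 31.9% in myotubes, against at most 0.0493% in any myoblast library. For Cox8b beside Cox8a the share was 9.07%, 15.5% and 19.9% in myotubes, against at most 0.0925%. For Cox7a1 beside Cox7a2 it was 4.16%, 5.61% and 12.8%, against 1.01%, 0.676% and 0.288% in myoblasts. In each pair the muscle share was lowest in myotube replicate 1 and highest in replicate 3, and no myotube library overlapped a myoblast library. The shares rest on the deposited lengths, 680 bases for Cox6a2 and 702 for Cox6a1. These were 360 for Cox8b and 619 for Cox8a, and 535 for Cox7a1 and 944 for Cox7a2. The muscle isoform is the shorter in each pair, so shares from CPM without length scaling would be smaller.

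The log2 ratio of muscle to common isoform, with 0.1 CPM per kilobase added to both, differed between the groups by 8.29 for Cox6a2 over Cox6a1, by 7.36 for Cox8b over Cox8a and by 3.39 for Cox7a1 over Cox7a2. The exact two-sided permutation test gave p = 0.1 for each of these 3 pairs, also 0.1 after adjustment over the 3, which is the smallest p that 3 libraries against 3 can give. The size of these differences depends on the added constant, since the myoblast levels are near 0. With 1 added they were 5.52, 4.86 and 2.34.

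By edgeR 0 of the 3 common isoforms were called lower, beside 19.6% of all tested genes. DESeq2 and limma-voom also called 0 of 3, and their shares over all tested genes are not given here. With 3 genes these counts do not show that the common isoforms were unchanged. Cox6a1 had a log2 fold change of -0.43 ± 0.19 (adjusted p = 0.101), Cox7a2 of -0.42 ± 0.21 (adjusted p = 0.144) and Cox8a of -0.21 ± 0.21 (SE, edgeR adjusted p = 0.452). Without myotube replicate 1 Cox6a1 was called lower (-0.62, adjusted p = 0.0179), while Cox8a was at -0.46 (adjusted p = 0.0567). The sum of both isoforms overlapped between the groups in all 3 pairs. It was 180 ± 19.2 CPM per kilobase in myoblasts and 172 ± 9.39 in myotubes for Cox6a, 187 ± 21.3 and 189 ± 35.6 for Cox8, and 93.4 ± 20.1 and 74.8 ± 7.48 for Cox7a (SD, n = 3).

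**Figure D2:**
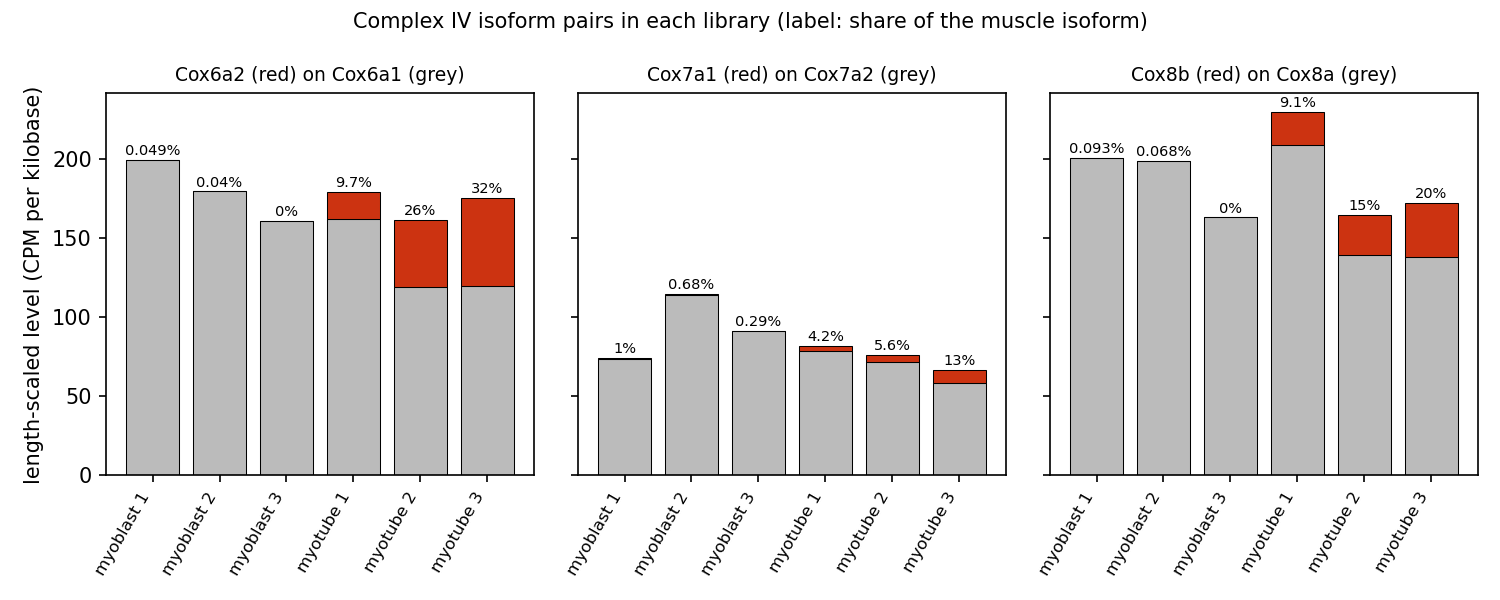
Length-scaled level (CPM per kilobase) of the common isoform (grey) and, stacked on it, the muscle isoform (red) in each of the 6 libraries, with the muscle share above each bar. The red part reaches 9.71% to 31.9% for Cox6a2, 4.16% to 12.8% for Cox7a1 and 9.07% to 19.9% for Cox8b in myotubes.

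All 3 muscle isoform genes are protein-coding genes on chromosome 7 in GRCm38.p6, the patch release of the mm10 build. Cox7a1 lies at chr7:30184171-30186030, Cox6a2 at chr7:128205435-128206366 and Cox8b at chr7:140898942-140900446. Cox6a1 lies at chr5:115345652-115348958, Cox7a2 at chr9:79755241-79771422 and Cox8a at chr19:7215158-7217616. The RefSeq promoters (GRCm38.p6, 250 bases before to 50 after the start) are shown for the isoforms whose balance changed. An entry was found for 67 of the 85 distinct member symbols, and Cox6a2 was not among them. Capitals mark matches, on either strand, to the E-box CAGCTG, to the NRF1 motif (GCGCA and GCGC with 1 base between), to the ETS motif CCGGAAG, to the ERR motif TCAAGGTCA or to the YY1 motif AAGATGGC.
Cox8b, chr7:140900397-140900696, minus strand: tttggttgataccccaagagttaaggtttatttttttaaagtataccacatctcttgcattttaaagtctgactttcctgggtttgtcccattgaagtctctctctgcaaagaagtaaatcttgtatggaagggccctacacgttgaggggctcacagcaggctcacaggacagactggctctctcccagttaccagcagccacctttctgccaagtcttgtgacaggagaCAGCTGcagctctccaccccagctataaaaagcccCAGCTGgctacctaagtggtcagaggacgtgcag
Cox8a, chr19:7217567-7217866, minus strand: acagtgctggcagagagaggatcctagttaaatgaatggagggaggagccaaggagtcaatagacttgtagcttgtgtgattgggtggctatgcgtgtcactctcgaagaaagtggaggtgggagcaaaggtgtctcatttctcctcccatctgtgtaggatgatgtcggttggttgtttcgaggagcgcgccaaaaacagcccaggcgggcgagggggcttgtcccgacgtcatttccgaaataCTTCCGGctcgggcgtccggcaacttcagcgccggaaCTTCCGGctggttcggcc
Cox7a1, chr7:30183921-30184220, plus strand: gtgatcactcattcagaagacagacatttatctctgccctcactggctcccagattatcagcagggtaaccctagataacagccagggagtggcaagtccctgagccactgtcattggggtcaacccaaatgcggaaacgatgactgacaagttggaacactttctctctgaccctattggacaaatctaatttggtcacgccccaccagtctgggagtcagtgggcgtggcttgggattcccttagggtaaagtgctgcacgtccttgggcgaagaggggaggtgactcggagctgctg
Cox7a2, chr9:79759804-79760103, minus strand: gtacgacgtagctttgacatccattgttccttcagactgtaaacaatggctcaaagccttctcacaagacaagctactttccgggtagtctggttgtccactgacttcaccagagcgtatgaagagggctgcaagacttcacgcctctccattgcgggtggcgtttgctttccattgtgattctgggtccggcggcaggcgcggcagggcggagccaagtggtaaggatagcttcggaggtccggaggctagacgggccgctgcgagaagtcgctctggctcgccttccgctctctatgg
Cox6a1, chr5:115348909-115349208, minus strand: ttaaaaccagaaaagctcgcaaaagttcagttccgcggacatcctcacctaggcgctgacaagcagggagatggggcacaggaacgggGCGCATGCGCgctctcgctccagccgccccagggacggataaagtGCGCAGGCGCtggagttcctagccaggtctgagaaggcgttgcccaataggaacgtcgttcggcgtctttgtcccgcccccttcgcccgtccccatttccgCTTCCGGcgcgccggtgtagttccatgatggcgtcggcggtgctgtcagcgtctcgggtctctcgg
E-boxes are the sites that myogenic factors such as MyoD and myogenin are known to bind. The Cox8b promoter held 2 CAGCTG matches, starting at bases -19 and 17 from the start site. It also held 1 TATAAA, which lies between them and after the annotated start site. Cox8a held 0 CAGCTG and 2 CCGGAAG matches. Cox7a1 and Cox7a2 held 0 matches to the 5 marked motifs and 1 match each to the looser E-box CANNTG, which includes CAGCTG. The Cox7a2 entry (chr9:79759804-79760103) lies inside the gene span (chr9:79755241-79771422), while the other entries shown lie at the start of their gene. Its matches are therefore those of an internal start. Cox6a1 held 2 matches to the NRF1 motif and 1 to the ETS motif. NRF1 and the ETS factor GABP are known regulators of nuclear respiratory genes. Over the members the NRF1 motif was found in 25.4% (17 of 67) beside 5.19% of 27025 genes with an entry, the ETS motif in 25.4% beside 9.93% and the YY1 motif in 14.9% beside 3.19%. CAGCTG was found in 8.96% beside 18.3%, CANNTG in 68.7% beside 75.0%, and the ERR motif in 2.99% beside 0.466%. Among the called genes with an entry, the ETS and YY1 motifs were in 0 of 5 that rose and 0 of 7 that fell, and the NRF1 motif was in 0 of 5 and 4 of 7. Of 53 tested but not called, 17 held the ETS, 10 the YY1 and 13 the NRF1 motif. In the same order, CAGCTG was in 1 of 5, 1 of 7 and 4 of 53, and CANNTG in 4 of 5, 7 of 7 and 34 of 53. The ERR motif was in 0 of 5, 1 of 7 and 1 of 53. The called genes are few, and a link of motif to direction was not tested. Member promoters were richer in G and C (median 57.5% against 52.7%), and the motif shares were not adjusted for this. A match describes these letters and no binding was measured.

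None of the remaining subunits of complex IV was called. Of 10 other tested genes 0 passed by edgeR, beside 40.1% of all tested genes. At an unadjusted p under 0.05 the number passing was 1, and DESeq2 called 1 and limma-voom 0, without shares of all tested genes beside them. The gene that passed there was Cox5a, a subunit on the matrix side, at 61.1, 128 and 115 CPM in myoblasts and 41.2, 75.9 and 50.5 in myotubes. The groups overlapped, with a log2 fold change of -0.86 ± 0.32 (SE, edgeR adjusted p = 0.0659). Cox5a was called lower with the replicate number as a block (adjusted p = 0.0111), with scaling by library size, without a filter, and without myoblast replicate 1 (-1.13) or myotube replicate 2 (-1.18). Cox6b1, which links the monomers of the enzyme, stood at 110 ± 4.57 and 116 ± 15.5 CPM (SD, n = 3). Cox7b stood at 122 ± 13.8 and 134 ± 19.8 CPM and Cox6c at 133 ± 25.0 and 168 ± 11.9 CPM, where Cox6c was higher in every myotube library (adjusted p = 0.184). The testis forms Cox6b2 and Cox7b2 had 8 and 2 counts over all 6 libraries, and Cox8c had 0 counts, which allows up to 3 counts per library. Cox4i1 and Cox4i2, the forms of subunit IV, are outside the symbol rule. Cox4i1 had mean levels of 212 and 171 CPM and did not pass the test (adjusted p = 0.21), and Cox4i2 had 5 counts in all. Ndufa4, named for complex I and now counted as a complex IV subunit, was not called (-0.58 ± 0.26 SE, adjusted p = 0.11), except with the replicate block (adjusted p = 0.0275). By its symbol it stays in the counts and sums of complex I here. Its relative Ndufa4l2, known as a hypoxia-induced gene, had 8 counts before and 9 after differentiation (CPM ratio 1.86, 95% counting interval 0.638 to 5.55).

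ATP synthase held most of the genes that fell. Of 17 tested complex V genes 6 fell, or 35.3% beside 19.6% of all tested genes, and the median log2 fold change was -0.24. Atp5b, the catalytic beta subunit and the member with the highest level per length, stood at 1719, 1990 and 1741 CPM in myoblasts and 921, 1177 and 1039 in myotubes. The groups were well apart, with a log2 fold change of -0.80 ± 0.22 (SE, edgeR adjusted p = 0.021). Atp5a1, the alpha subunit that alternates with beta in the F1 head, had 792, 882 and 777 CPM against 553, 627 and 528. Its groups did not overlap either, but it missed the threshold (-0.52 ± 0.19 SE, adjusted p = 0.0588), while DESeq2 (adjusted p = 0.011) and limma-voom (adjusted p = 0.0407) called it. In the central stalk, Atp5c1 (gamma) fell from 275 ± 13.4 to 196 ± 9.73 CPM and Atp5d (delta) from 174 ± 20.2 to 110 ± 17.3 CPM (SD, n = 3). Atp5e (epsilon), the smallest stalk subunit, was at 34.5 ± 11.2 and 37.5 ± 12.2 CPM and was not called.

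The c ring, the rotor that protons turn, is encoded by 3 genes whose mature products are the same protein. Atp5g1 was at 130, 122 and 109 CPM in myoblasts and 67.2, 80.5 and 76.3 in myotubes, and fell by 0.69 on the log2 scale (SE 0.16, edgeR adjusted p = 0.0117). Atp5g3 fell from 192 ± 42.8 to 118 ± 24.8 CPM (SD, n = 3; edgeR adjusted p = 0.0416). Atp5g2 stood at 58.1, 55.5 and 52.8 CPM against 59.8, 47.7 and 36.6, with overlapping groups (-0.21 ± 0.20 SE on the log2 scale, edgeR adjusted p = 0.439). Whether these 3 changes differ from each other was not tested. In the peripheral stalk Atp5o, the subunit that ties the stalk to the head, fell from 115 ± 12.1 to 78.7 ± 7.76 CPM (SD, n = 3; edgeR adjusted p = 0.032). Atp5pb had a log2 fold change of -0.47 (adjusted p = 0.0745) without overlap of the groups, and Atp5h and Atp5j had -0.07 and -0.06. The small membrane subunits Atp5k, Atp5j2, Atp5l, Atp5md and Atp5mpl lay between -0.24 and 0.35, and their groups overlapped.

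Atp5g1 was called in all 13 alternatives, with a log2 fold change between -0.81 and -0.63. Atp5b, Atp5c1, Atp5d, Atp5g3 and Atp5o each lost the call without myoblast replicate 2 and without myotube replicate 3, and all of them but Atp5d also without myoblast replicate 3. Atp5c1 lost it without myotube replicate 2, without a filter (adjusted p = 0.0799) and with the replicate block (adjusted p = 0.0526) as well, and Atp5g3 without myotube replicate 1. The 17 genes then held 1 lower call without myoblast replicate 2, 2 without myoblast replicate 3 and 1 without myotube replicate 3. Over the 13 alternatives the log2 fold change of Atp5b lay between -0.93 and -0.73.

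**Figure D3:**
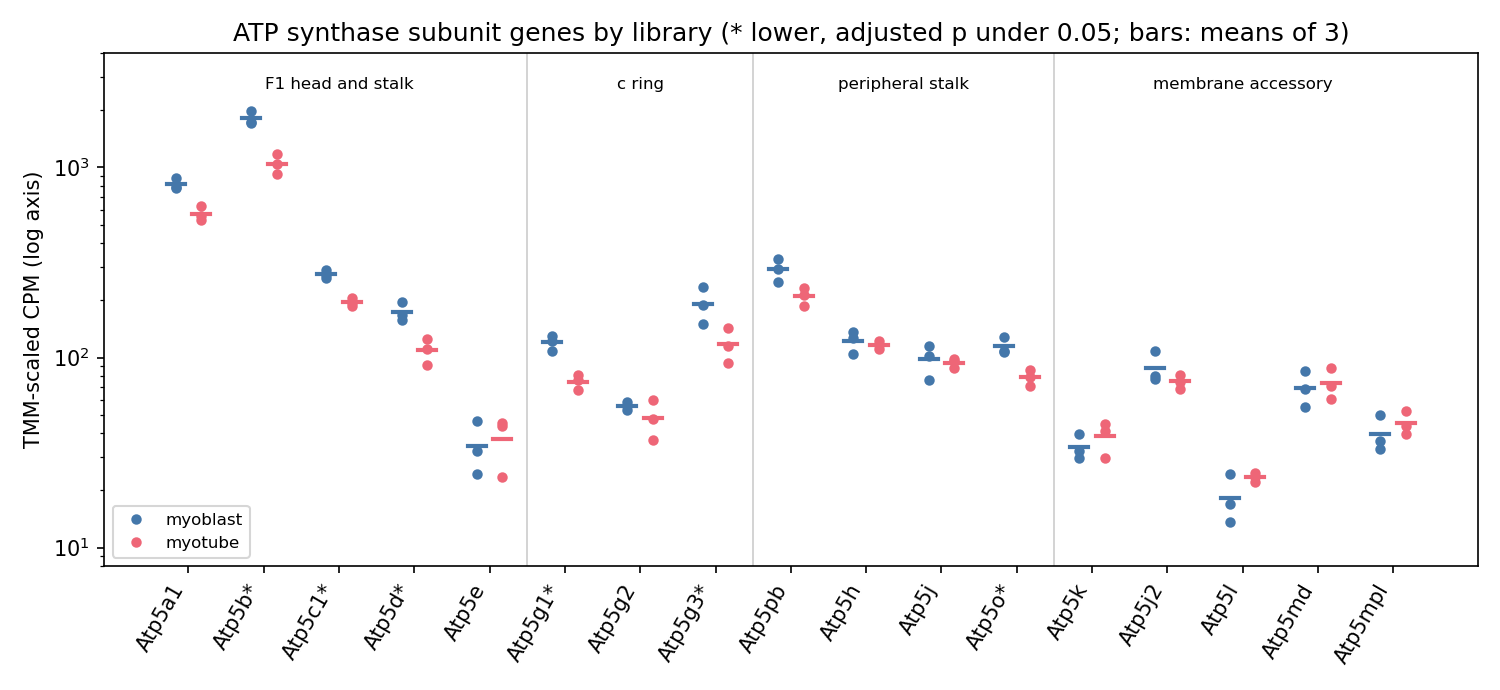
TMM-scaled CPM on a log axis of the 17 tested ATP synthase genes in each library (points; bars are means of 3), ordered by position in the enzyme, with an asterisk for the 6 called lower. Myotube points lie below myoblast points for Atp5b (921 to 1177 against 1719 to 1990 CPM) and overlap them for the membrane accessory subunits.

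Complex I, the largest of the 5, was nearly balanced. Of 36 tested genes 4 rose (11.1% beside 20.5% of all tested genes), the median log2 fold change was 0.01, and 18 values were above and 18 below 0. edgeR called 0 lower, beside 19.6% of all tested genes. At an unadjusted p under 0.05 there were 3 lower, with 1 by DESeq2 and 0 by limma-voom, without shares of all tested genes beside them. Ndufv3, an accessory subunit of the NADH-oxidising module, stood at 45.1, 35.2 and 24.5 CPM in myoblasts and 89.1, 54.9 and 69.9 in myotubes. Its groups did not overlap, and the log2 fold change was 1.03 ± 0.27 (SE, edgeR adjusted p = 0.0177). Ndufv3 is known to have a short and a long splice form, which counts per gene cannot separate. Its call was lost without myoblast replicate 2 (adjusted p = 0.0614) or 3 (adjusted p = 0.0566). Ndufa13, an accessory subunit also known as GRIM-19, rose from 67.3 ± 7.26 to 100.1 ± 6.67 CPM, and Ndufa1 from 19.7 ± 1.94 to 28.7 ± 2.07 CPM (SD, n = 3).

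The nuclear core subunits carry the flavin, the iron-sulfur clusters and the quinone site. Ndufs7, which holds the last iron-sulfur cluster, was lower in every myotube library (45.2 ± 3.54 against 33.3 ± 3.13 CPM, SD, n = 3) but missed the threshold (adjusted p = 0.0597). Of 36 tested complex I genes 4 were lower in every myotube library, beside 27.2% of all tested genes. They were Ndufs7 and the accessory subunits Ndufa5, Ndufa8 and Ndufa10 (adjusted p = 0.0581, 0.0809 and 0.114 for the accessory ones). Ndufs8 had a log2 fold change of -0.42 ± 0.22, Ndufv2 of -0.17 ± 0.15, Ndufv1 of -0.03 ± 0.17, Ndufs3 of 0.04 ± 0.17 and Ndufs1 of 0.06 ± 0.19 (SE), and their groups overlapped. Among the other accessory subunits, Ndufa6, Ndufb4 and Ndufa7 were higher in every myotube library without passing the test (adjusted p = 0.0759, 0.0503 and 0.0567). With the replicate block Ndufa6 was called higher (adjusted p = 0.0435). Ndufa13 lost its call in 6 of 13 alternatives. These were scaling by library size (adjusted p = 0.0825), no filter, and leaving out replicate 2 or 3 of either group. Ndufa1 lost its call in 8 of 13, with scaling by library size, without a filter and with any 1 library left out. Without myoblast replicates 1, 2 or 3 the number of complex I genes called higher was 2, 0 and 0, and without myotube replicate 2 or 3 it was 1 and 1.

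All 4 genes of complex II, the succinate dehydrogenase of the citric acid cycle, had lower means in myotubes. By edgeR, however, 0 of 4 were called, beside 40.1% of all tested genes. At an unadjusted p under 0.05 there were 2, DESeq2 called 1 and limma-voom 0, without shares of all tested genes beside them. Sdhb, the iron-sulfur subunit, stood at 84.8, 117 and 105 CPM in myoblasts and 68.0, 79.8 and 69.0 in myotubes, the one gene of the 4 without overlap (log2 fold change -0.50, edgeR adjusted p = 0.0565, or 0.0437 with the replicate block). Sdhd, a membrane anchor, was at 74.2, 137 and 114 CPM against 65.8, 84.3 and 68.9 (-0.57 ± 0.24 SE, adjusted p = 0.0947). The catalytic flavoprotein Sdha had a log2 fold change of -0.30 ± 0.18 and the anchor Sdhc of -0.25 ± 0.20 (SE). Without myoblast replicate 1, Sdhb and Sdhd were called lower (adjusted p = 0.0255 and 0.0186).

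In complex III only Uqcrc1 was called among 8 genes (12.5% lower beside 19.6% of all tested genes). Uqcrc1, a large core protein on the matrix side, fell from 211, 202 and 171 CPM in myoblasts to 90.4, 124 and 113 in myotubes. The groups did not overlap, the log2 fold change was -0.84 ± 0.19 (SE, edgeR adjusted p = 0.00887), and the call held in all 13 alternatives. Without myoblast replicate 1 the number of complex III genes called lower was 2. Uqcrc2, the partner core protein, stood at 111 ± 13.4 and 112 ± 2.82 CPM (SD, n = 3), with a log2 fold change of 0.01. Uqcrfs1, the Rieske iron-sulfur protein, was at 73.9 ± 20.7 and 58.4 ± 5.2 CPM and was not called. Uqcr11 and Uqcrb, the complex III genes with the highest level per length in myotubes, had log2 fold changes of 0.12 and -0.17.

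The order of levels among the subunit genes was similar before and after differentiation. Spearman's rho between mean myoblast and mean myotube level per kilobase was 0.92 over 78 genes and 0.93 over the 75 without the muscle isoforms, a description across genes that share their deposited length in both groups. Atp5b led with 429 CPM per kilobase in myoblasts and 247 in myotubes, followed by Atp5a1 with 261 and 182. The medians per complex in myotubes were 36.3 CPM per kilobase for complex I, 39.4 for II, 53.9 for III, 52.9 for IV and 39.9 for V. The deposited lengths of the small subunits Atp5l and Ndufb2 are 6443 and 5628 bases, which places their levels per length low (3.64 and 3.95 CPM per kilobase in myotubes). Summed over its genes, complex V went from 4361 ± 356 to 2953 ± 246 CPM and complex I from 2258 ± 202 to 2266 ± 121 CPM (SD, n = 3). Complex III held 778 ± 53.9 and 678 ± 17.5, complex II 529 ± 88.6 and 406 ± 47.5, and complex IV 985 ± 78.8 and 936 ± 34.8. The groups lay apart for complexes III and V and overlapped for I, II and IV. Without Uqcrc1 the complex III sums were 583 ± 43.8 and 569 ± 6.36 CPM and overlapped. Without Atp5b and Atp5a1, which hold most of the difference, the complex V sums were 1728 ± 149 and 1338 ± 76.4 CPM (SD, n = 3) and still lay apart.

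**Figure D4:**
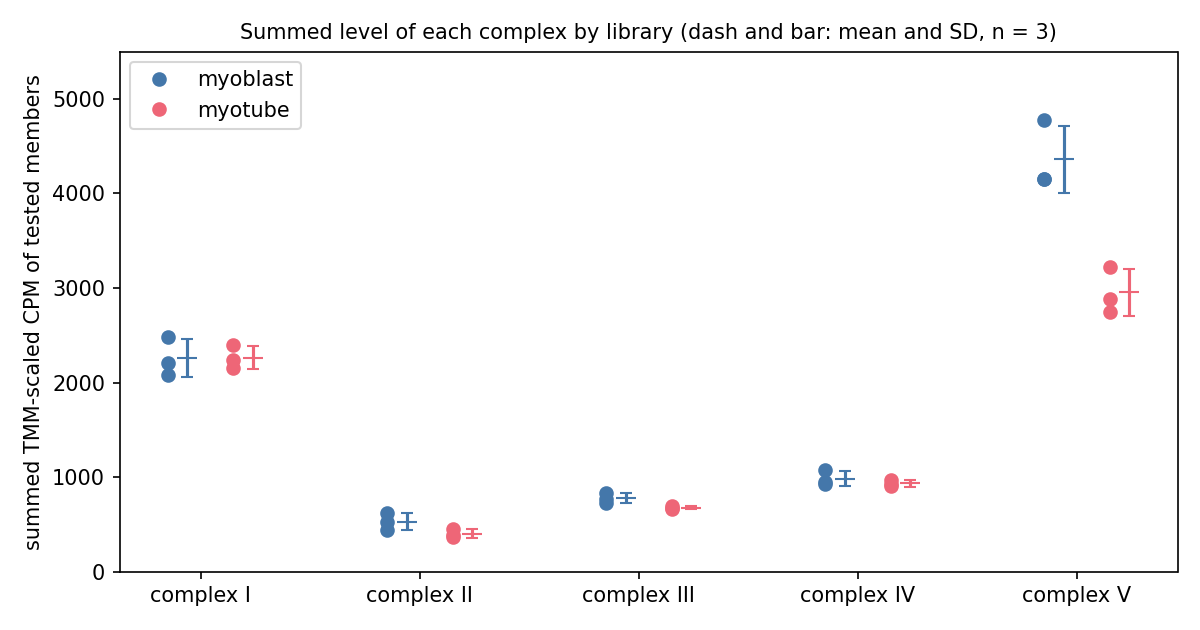
Summed TMM-scaled CPM of the tested genes of each complex in every library (points), with mean and SD (dash and bar, n = 3). Complex V lies at 4154 to 4772 in myoblasts and 2748 to 3226 in myotubes, while the groups of complex I overlap.

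Of the 86 genes, 8 were too low to test. Besides Cox6b2, Cox7b2, Cox8c and Ndufa4l2 these were Ndufs6b, Ndufb4c and Ndufa11b, copies of other subunit genes with at most 26 counts in all, and an additional Atp5o entry with 0 counts. Cox6c2, a tested copy of Cox6c, had 79 counts. Counts of these copies and of their parents are uncertain, since reads may match both. The rule left out 10 symbols with -ps. Among them Ndufb1-ps carried 6150 counts and was called higher in myotubes (1.01 on the log2 scale, adjusted p = 0.023).

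Other genes of the pathway, from fixed lists, are given for comparison. Of 13 mitochondrially encoded subunits 10 were tested, and 7 rose (70% beside 20.5% of all tested genes), with a median log2 fold change of 1.26. mt-Co1, the catalytic core of complex IV, stood at 6017, 2620 and 3607 CPM in myoblasts and 9674, 9122 and 10976 in myotubes, and mt-Cytb of complex III at 704 ± 350 and 1786 ± 290 CPM (SD, n = 3). Without myoblast replicate 2 or 3 or myotube replicate 3 the number that rose was 3. Counts in this list were uneven, with 1264024 for mt-Co1 and 559 for mt-Co2 over all libraries. Of 8 other tested subunits and partners of the chain, 2 rose and 2 fell (25% each, beside 20.5% and 19.6% of all tested genes). The cytochrome c gene Cycs fell from 98.5 ± 28.0 to 36.3 ± 8.53 CPM, and Cyc1, the cytochrome of complex III, from 134 ± 27.1 to 69.4 ± 18.6 CPM (SD, n = 3). Higd1a and Higd2a, small inner membrane proteins, rose, with myotube replicate 1 the highest library for both. Higd1a stood at 20.4, 27.4 and 25.1 CPM in myoblasts and 99.0, 37.2 and 38.7 in myotubes. Higd2a stood at 11.7, 11.9 and 10.4 CPM against 24.9, 16.5 and 16.2. Leaving out any 1 myoblast library left 0 of the 8 called higher, leaving out myotube replicate 1 left 1, and without myoblast replicate 2 or 3 or myotube replicate 3 only 1 fell.

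Of 53 tested assembly factors 5 rose (9.43%) and 11 fell (20.8%), beside 20.5% and 19.6% over all tested genes, with a median of 0.02. Lrpprc, which stabilises mitochondrial mRNAs, fell from 146 ± 18.3 to 72.7 ± 19.7 CPM, and Ndufaf4, Acad9 and Atpaf2 fell by 1.10, 0.48 and 0.54 on the log2 scale. The complex IV factor Cox14 rose from 22.3 ± 3.81 to 44.5 ± 4.76 CPM (SD, n = 3). Leaving out myoblast replicate 2 changed these counts to 2 and 4, myoblast replicate 3 to 1 and 4, myotube replicate 2 to 1 and 9 and myotube replicate 3 to 1 and 5. Of 7 tested carriers and channels of the mitochondrial membranes 1 rose (14.3%) and 4 fell (57.1%), beside 20.5% and 19.6% of all tested genes. The ADP/ATP carriers Slc25a4, the muscle form, and Slc25a5 fell by 0.70 and 1.22 on the log2 scale. Ckmt2, the mitochondrial creatine kinase of muscle, is the one that rose, from 0 counts in myoblasts. It passed the filter on low counts through its myotube libraries alone, so it could be called higher but not lower. The number of these carriers and channels that fell was 1 without myoblast replicate 2, 2 without myoblast replicate 3 and 1 without myotube replicate 3. Of 12 tested transcriptional regulators of mitochondrial genes 4 fell (33.3% beside 19.6% of all tested genes) and 0 rose (beside 20.5%). Among the 4 were Nrf1 (57.6 ± 1.38 to 29.5 ± 0.80 CPM, SD, n = 3) and Pprc1. Ppargc1a, the coactivator PGC-1 alpha, was at 1.26 and 2.13 CPM and was not called (adjusted p = 0.197). The numbers of regulators called higher and lower were 1 and 1 when myoblast replicate 2 was left out, 2 and 1 for myoblast replicate 3, and 1 and 2 for myotube replicate 3. Each of myoblast replicate 1 and myotube replicate 1, left out, also gave 1 higher, and no filter gave 2 higher and 3 lower. These fits tested 13 or 14 regulators, and 15 without a filter, so genes outside the 12 were among them. Esrrb and Esrrg, too low to test in the main fit, were higher in every myotube library. Their means were 0.0967 and 0.00557 CPM in myoblasts and 0.70 and 0.437 in myotubes. Perm1, also untested, had 5 counts in all.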

How the data were processed

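Total RNA was sequenced from C2C12 myoblasts and myotubes with a stranded, ribosome-depleting kit, per the labels' protocols. The authors deposited raw counts per gene with a gene length. The submitters' processing notes name STAR 2.5.1b, featureCounts 1.5.1, Salmon 0.12.0, DESeq2 1.18.1 and mm10 without assigning them to steps, and the strand setting is not given in the sources used here. From the deposited counts, edgeR 4.0.16 (R 4.3.3; TMM, filterByExpr by group, robust quasi-likelihood test, no covariate) compared the groups over all 15932 filtered genes, with Benjamini-Hochberg adjustment and a threshold of 0.05. The SE of a log2 fold change is its size divided by the square root of F. The procedure was tested on simulated data. Log2 isoform ratios used levels per kilobase plus 0.1 and an exact permutation test in scipy 1.17.1. Members, lists and tests were chosen with earlier results of these data known.

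The named genes were the paralog sets of complex IV, Ndufa4 and the c ring, the 4 Sdh genes, the complex I core genes, the 5 called members per direction with the largest fold change, the 2 members per complex with the highest level per length in myotubes, and from each other list the 2 called genes with the highest mean level. Others were named after their values were seen. The single values of 1 gene counted in complex I are not reported here. Same-numbered myoblast and myotube libraries deviated together (correlations 0.232, 0.189 and 0.17 over the tested genes), so the number was treated as a possible pairing. Of the 6 other combinations, myoblast 3 with myotube 2 had a higher correlation, 0.358, and the rest lay between -0.429 and 0.0633. Its source is the replicate number in the labels. No pair of libraries of a group was alike within sampling noise (chi-square per degree of freedom at least 103). Alternatives were library size or RLE scaling, DESeq2 1.42.0, limma-voom (limma 3.58.1), no filter or a mean count of at least 50, the replicate block and each library left out. Sums without single genes were added after seeing the data.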

Additional observations from a re-analysis of the deposited data

How the results depend on the processing

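The 3 muscle isoforms, Atp5g1 and Uqcrc1 kept their calls in all alternatives that tested them, and each of the other 9 called genes lost its call in at least 2 of 13. Scaling by library size moved the median of all tested genes from 0.06 to -0.07 and that of the subunit genes from -0.07 to -0.19. It called 4 subunit genes higher and 14 lower, with 1 higher and 2 lower in complex I, 2 lower in complex II and 1 lower in complex IV. DESeq2 called 11 lower, 1 each in complexes I, II and IV. Without a filter 4 were called higher, 1 of them in complex I, and 1 in complex IV lower. The replicate block added 1 lower call each in complexes I, II and IV (Ndufa4, placed in complex I by its symbol alone, Sdhb and Cox5a). It ended that of Atp5c1 and gave 7 higher and 9 lower. In the block, the isoform pairs had an exact p of 0.25, the smallest that 3 pairs can give. Leaving out 1 library gave 3 to 6 higher and 2 to 12 lower, a median between -0.20 and -0.025, 0 to 3 higher in complex I, 0 to 2 lower in complex II, 1 to 2 lower in complex III, 0 to 1 lower in complex IV, and 0 to 1 higher and 1 to 7 lower in complex V. The shares of all tested genes called under each alternative are not given here, so these counts have no background beside them. The cause of these changes was not tested. No direction of a called gene reversed. Depth limits the myoblast levels of Cox6a2 and Cox8b, with 6 counts each.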
